A study of Mus musculus with 12 samples.

Results

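Collagens other than those of basement membranes were examined in embryonic fibroblasts of the mouse, primary connective-tissue cells from day 13.5 C57BL/6 wild-type embryos. The members were every row of the deposited count table whose Entrez identifier maps to a collagen chain symbol (Col, a type number, a and a chain number), without the type IV chains, Col15a1 and Col18a1, which build or bind basement membranes. This gave 36 of 27179 genes. All cells were kept in 10% serum at 3% oxygen and received either the MYST histone acetyltransferase inhibitor WM-8014 or WM-2474, which the labels call inactive and a control, each at 10 µM for 96 or 240 h. Each of the 4 groups holds 3 libraries, from cultures numbered 5, 6 and 7, which makes 12 in all, and the series design calls them biological replicates. No untreated cells were analysed here, so every compound difference is WM-8014 relative to WM-2474.

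Collagens are proteins with a triple helix, wound from chains that are each the product of a separate gene. Fibrillar collagens assemble into the banded fibrils that give tissue its tensile strength, and fibroblasts are their main source. Fibril-associated collagens with interrupted helices (FACIT) sit on fibril surfaces, type VI forms beaded microfilaments, the short chain types VIII and X form hexagonal networks, type VII forms anchoring fibrils beneath epithelia, and a further class spans the cell membrane.

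Levels are CPM, read counts scaled to a common library total after TMM, a correction for differences in library composition, and are given as mean ± SD with n = 3 cultures. Levels of different genes are compared only as CPM per kb of the deposited gene length. Differences are log2 fold changes with the standard error (SE) and the Benjamini-Hochberg adjusted p of edgeR's quasi-likelihood F test, adjusted over 14136 genes, and a gene rose or fell where that p was under 0.05. Total counts ran from 10147466 to 45903190 per library. The filter on low counts kept 28 of the 36 collagens. Among these, Col17a1 passed chiefly through the WM-8014 libraries, Col25a1 through the WM-2474 libraries and Col19a1 through the 96 h libraries, so counts over the 28 describe the collagens tested and not the whole family. All 9 fibroblast markers were above 1 CPM in every group, with a summed level of 11831 to 21751 CPM per library. The labels give the cells as female, but the Y-linked Ddx3y averaged 99.6 to 119.6 CPM per group and Xist at most 0.113 CPM, so the libraries go against that label. In bulk RNA, fewer cells of a type and less RNA per cell cannot be told apart.

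The promoters of 4 of the collagens that differed between the compounds at both times are shown here, for 3 that fell (Col24a1, Col27a1 and Col25a1) and for Col16a1, which rose. The 4 were picked with results known. Col5a1, Col5a2, Col17a1 and Col28a1 also rose at both times and Col8a2 also fell at both, and these are not shown. Each holds 250 bases before and 50 bases after an annotated start, in the RefSeq table for GRCm38.p6, on the plus strand. The starts used for Col27a1, Col25a1 and Col16a1 lie inside the annotated span of the gene. The windows are chr3:145292222-145292521 for Col24a1, chr4:63215162-63215461 for Col27a1, chr3:130180595-130180894 for Col25a1 and chr4:130047590-130047889 for Col16a1. Capitals mark matches on either strand to CCAAT (the CCAAT box), GGGCGG (the GC box) and TGACGTCA (the palindromic cAMP response element), a choice of motifs made with the results known. TATAAA (the TATA box) was searched too and had no match in these 4.
Col24a1: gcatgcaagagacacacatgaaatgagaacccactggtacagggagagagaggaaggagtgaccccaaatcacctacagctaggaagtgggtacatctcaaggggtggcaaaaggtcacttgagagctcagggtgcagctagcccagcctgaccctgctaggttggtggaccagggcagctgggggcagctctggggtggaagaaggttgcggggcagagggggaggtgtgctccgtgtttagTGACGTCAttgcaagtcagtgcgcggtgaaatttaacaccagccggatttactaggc
Col27a1: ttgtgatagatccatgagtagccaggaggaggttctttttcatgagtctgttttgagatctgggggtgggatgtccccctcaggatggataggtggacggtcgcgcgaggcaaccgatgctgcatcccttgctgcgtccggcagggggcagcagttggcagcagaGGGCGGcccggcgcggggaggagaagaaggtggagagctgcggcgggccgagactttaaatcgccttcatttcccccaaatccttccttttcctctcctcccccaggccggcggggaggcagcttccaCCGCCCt
Col25a1: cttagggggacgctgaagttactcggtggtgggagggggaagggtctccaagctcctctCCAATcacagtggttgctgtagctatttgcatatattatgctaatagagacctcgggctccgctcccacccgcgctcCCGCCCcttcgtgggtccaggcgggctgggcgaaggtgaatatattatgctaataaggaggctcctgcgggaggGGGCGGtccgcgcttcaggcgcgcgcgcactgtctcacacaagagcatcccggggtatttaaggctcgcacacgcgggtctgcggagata
Col16a1: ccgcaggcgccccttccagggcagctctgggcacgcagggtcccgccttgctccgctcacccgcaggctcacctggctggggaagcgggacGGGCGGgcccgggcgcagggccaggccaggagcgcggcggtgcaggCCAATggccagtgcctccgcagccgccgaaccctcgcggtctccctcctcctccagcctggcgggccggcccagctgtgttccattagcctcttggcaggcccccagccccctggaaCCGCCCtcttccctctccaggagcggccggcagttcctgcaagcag
The TGACGTCA of Col24a1 begins 7 bases before the start, and 1.79% of 32851 promoter windows hold that word. Col27a1 has a GC box 85 bases before its start and another on the opposite strand. Col25a1 and Col16a1 each have a CCAAT box, 191 and 113 bases before the start, and both also have a pair of GC boxes. These words are common, since 37.4% of all windows hold CCAAT, 35.7% GGGCGG and 13.6% TATAAA. The Col24a1 window has 6 CpG dinucleotides, near the median of 7 over all windows searched. That of Col27a1 has 18, that of Col25a1 23 and that of Col16a1 24. Promoters were matched for 28 of the 36 collagens, in 30 windows, of which 9 hold CCAAT, 18 GGGCGG, 5 TATAAA and 1 TGACGTCA. No promoter was taken for Col1a1, Col2a1, Col5a2, Col9a3, Col12a1, Col14a1, Col22a1 and Col26a1.

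Per unit length, the collagen RNA of these cells was mostly fibrillar. Fibrillar chains made up 86.1% ± 0.69 of the summed CPM per kb of the 36 genes in WM-2474 at 96 h and 85.1% ± 0.562 at 240 h, and 86.4% ± 0.599 and 86% ± 0.595 with WM-8014 (SD, n = 3). Type VI took 7.25% ± 0.258 to 8.75% ± 0.441 of it across the groups, the FACIT class 4.18% ± 0.305 to 4.47% ± 0.302, and the short chain types 1.34% ± 0.0515 to 1.77% ± 0.0934. The membrane-spanning collagens never exceeded 0.0169% in a library. The 36 genes together held 2.95 to 3.43% of all counted reads with WM-2474 and 3.27 to 3.58% with WM-8014 at 96 h, ranges that overlap. At 240 h the share was 4.78 to 4.95% with WM-2474 and 4.62 to 4.97% with WM-8014. Every library at 240 h was above every library at 96 h. The compounds differed by 0.29 percentage points at 96 h (exact permutation test, two-sided, p = 0.2, adjusted p = 0.35) and by -0.11 at 240 h (p = 0.4, adjusted p = 0.487). The 240 h and 96 h shares differed by 1.74 points with WM-2474 and 1.34 with WM-8014, each at p = 0.1 by the exact permutation test, the smallest that 3 against 3 allows, and at adjusted p = 0.2 over 28 such tests of shares and chain ratios.

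**Figure D1:**
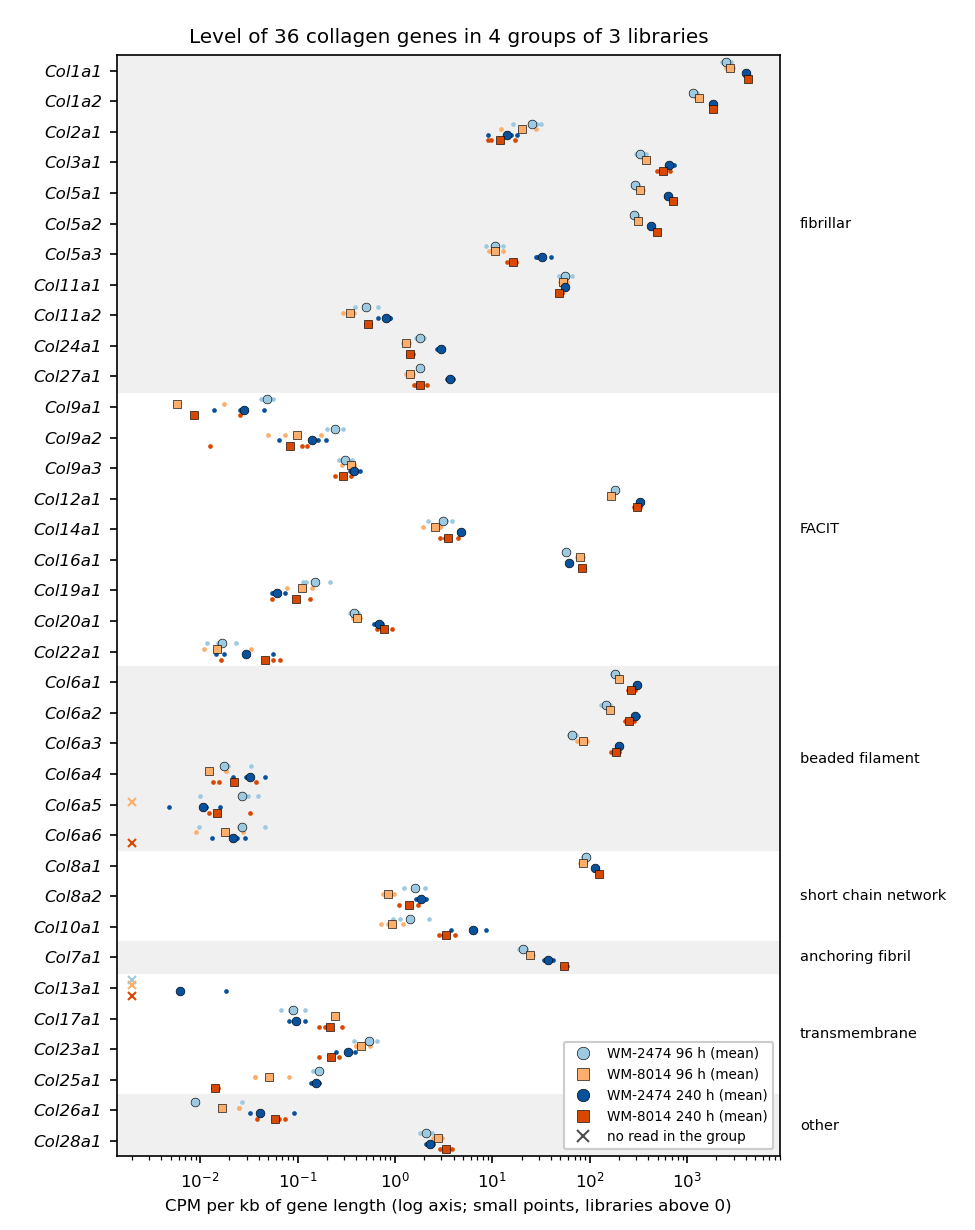
Level of each of the 36 collagens in CPM per kb of gene length (log axis), by class, with large markers for the mean of 3 libraries in each of the 4 groups, small points for single libraries above 0 and crosses for groups with no read. Levels span from Col1a1, with group means of 2506 to 4175 CPM per kb, down to Col13a1, which has 1 read in 12 libraries.

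At 96 h, 7 of the 28 collagens tested rose with WM-8014 and 4 fell, or 25% and 14.3% of them, where 10.9% of all genes tested rose and 11.8% fell. At 240 h, 6 rose and 7 fell, or 21.4% and 25%, where 21.2% of all genes rose and 21.4% fell, so the shares at 240 h were close to those of all genes. The median log2 difference of the 28 was 0.04 at 96 h and -0.19 at 240 h, and that of all genes tested was 0.00 and 0.01. The type I and III chains showed only small differences. Among the chains that fell were the minor fibrillar chains Col24a1, Col27a1, Col5a3 and Col11a2 and the short chain collagen Col8a2. Those that rose included the FACIT Col16a1, the anchoring fibril chain Col7a1 and Col28a1, and 2 membrane-spanning chains with few reads moved in opposite directions. These 2, Col17a1 (higher) and Col25a1 (lower), are in the counts at each time. Both passed the filter on low counts chiefly through the compound in which they were high, so the filter favoured those calls. The 96 h and 240 h comparisons use separate libraries, but from cultures with the same numbers and with the spread estimated over all 12 libraries. They are therefore not independent replications of each other. Leaving out 1 library at 96 h changed the 7 higher calls to 2 (WM-2474 culture 7) or 4 (WM-2474 culture 5 or WM-8014 culture 6), and leaving out WM-8014 culture 7 at 240 h changed the 7 lower calls to 11. Over all genes, 977, 1340 and 1303 rose in the 96 h settings, against 1544 in the main fit. In the 240 h setting 2724 of all genes fell, against 3031.

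**Figure D2:**
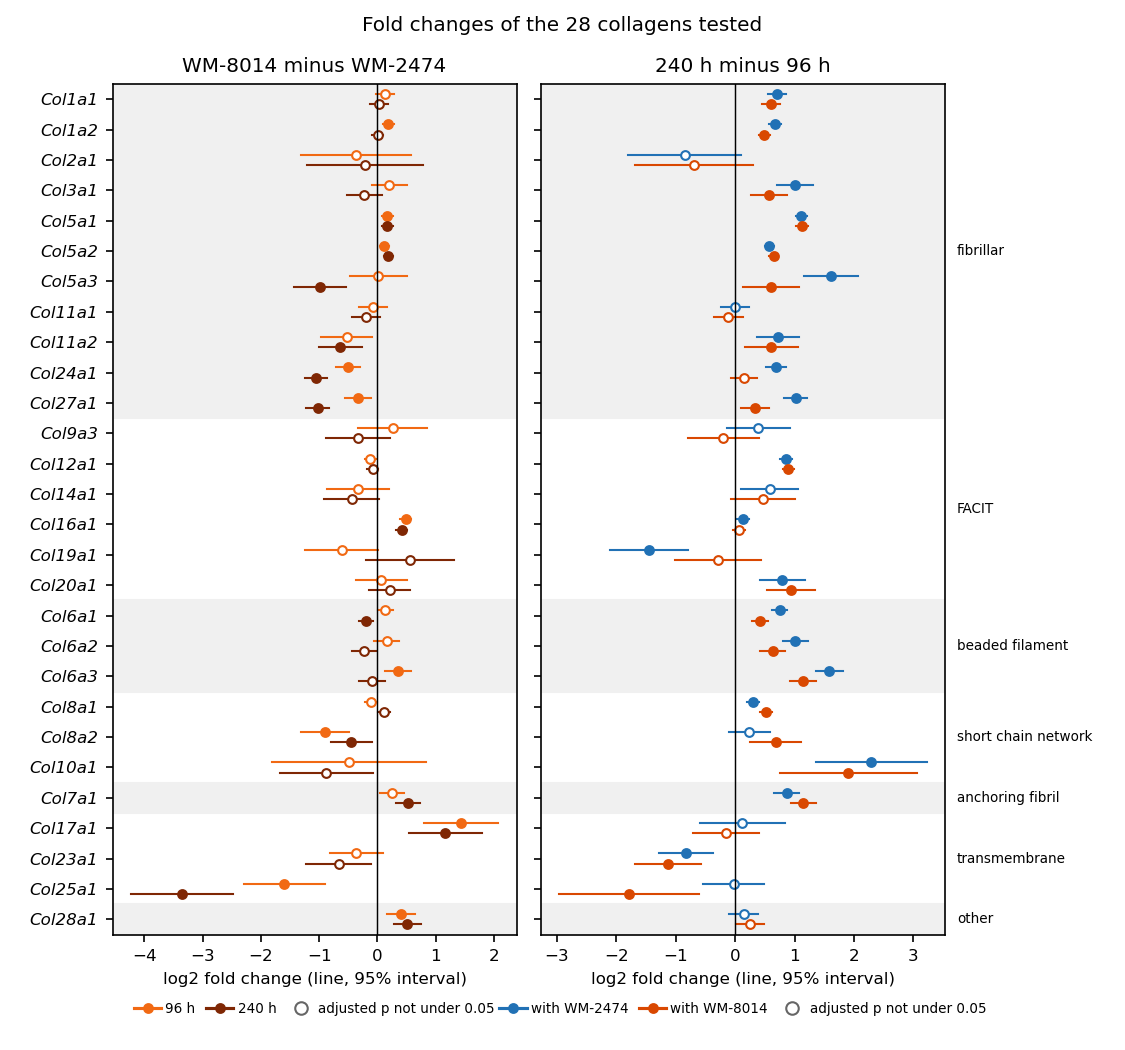
Log2 fold change with its 95% interval for the 28 collagens tested, by class, for WM-8014 minus WM-2474 at each time (left) and for 240 h minus 96 h with each compound (right). Filled points have an adjusted p under 0.05. On the left the abundant fibrillar chains lie near 0 while Col24a1, Col27a1 and Col5a3 lie to the left at 240 h, and on the right most points lie above 0.

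Type I collagen is the main fibril protein of skin, bone and tendon, a trimer with more Col1a1 than Col1a2 chains. Col1a1 (chr11:94936224-94953042, GRCm38.p6) stood at 10746, 13229 and 11422 CPM in cultures 5, 6 and 7 with WM-2474 at 96 h and at 12944, 14025 and 11839 CPM with WM-8014. The 240 h libraries stood at 18793, 19943 and 18813 CPM with WM-2474 and at 19354, 19600 and 20023 CPM with WM-8014. The compound groups overlap at both times, and every 240 h library is above every 96 h library. Its log2 difference between compounds was 0.13 at 96 h (SE 0.0716, adjusted p = 0.213, 95% interval -0.02 to 0.29) and 0.04 at 240 h (SE 0.0716, adjusted p = 0.726, interval -0.12 to 0.19), and leaving out WM-2474 culture 6 at 96 h gave 0.22 with adjusted p = 0.00886, in a range of 0.00886 to 0.54 over the alternatives.

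Col1a2 (chr6:4505618-4541543) stood at 5740, 6458 and 5713 CPM with WM-2474 and at 6996, 7004 and 6369 CPM with WM-8014 at 96 h. The ranges overlap, since WM-2474 culture 6 exceeds WM-8014 culture 7, but each culture was higher with WM-8014 than its WM-2474 namesake. The rise was 0.19 (SE 0.0457, adjusted p = 0.00555), and without WM-2474 culture 7 at 96 h it was 0.16 with adjusted p = 0.0505, the highest over the alternatives, of which the lowest was 0.00068. Levels at 240 h were 9588, 9522 and 9401 CPM against 9653, 9323 and 9668 CPM, a difference of 0.01 (SE 0.0456, adjusted p = 0.922, interval -0.09 to 0.10). Per length, Col1a1 was 2.02 to 2.3 times the level of Col1a2 in the 12 libraries.

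Type III collagen, a homotrimer of Col3a1 found with type I in distensible tissues, did not pass the test with the compound. Its levels with WM-2474 were 1652, 2121 and 1728 CPM at 96 h and 4064, 3508 and 3431 CPM at 240 h. With WM-8014 they were 2188, 2052 and 2091 CPM, then 3000, 2747 and 3677 CPM. The compound groups overlap at both times, with differences of 0.20 (SE 0.13, adjusted p = 0.318) and -0.22 (SE 0.13, adjusted p = 0.205). Without WM-8014 culture 7 at 240 h the later difference was -0.35 with adjusted p = 0.048, in a range of 0.048 to 0.484.

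Type V collagen is built into type I fibrils and limits their width, and its chains split. Col5a1 stood at 2345, 2643 and 2444 CPM with WM-2474 and at 2799, 2934 and 2642 CPM with WM-8014 at 96 h, and at 5131, 5557 and 5417 CPM against 6057, 5814 and 6299 CPM at 240 h. The groups touch at 96 h and are separate at 240 h. It rose by 0.17 at both times (SE 0.0476, adjusted p = 0.0128 at 96 h and SE 0.0475, adjusted p = 0.0055 at 240 h). Col5a2, its partner in the common heterotrimer, stood at 1856, 2027 and 1828 CPM against 2061, 2089 and 2052 CPM at 96 h and at 2834, 2893 and 2775 CPM against 3241, 3213 and 3252 CPM at 240 h. No WM-8014 library reaches down to a WM-2474 library of its time, and the rises were 0.12 (SE 0.0374, adjusted p = 0.025) and 0.19 (SE 0.0373, adjusted p = 0.000264). The 96 h calls are the less firm. Col5a1 missed the threshold without WM-2474 culture 5 (adjusted p = 0.0784), WM-2474 culture 7 (0.0588) or WM-8014 culture 6 (0.0706), in a range of 0.00361 to 0.0784, and Col5a2 missed it without any of WM-2474 cultures 5 and 7 and WM-8014 cultures 5 and 6 (up to 0.166, in a range of 0.00348 to 0.166).

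The third type V chain, Col5a3 (chr9:20770050-20815117), known from fewer tissues than the others, was level between compounds at 96 h and lower with WM-8014 at 240 h. At 96 h it stood at 53, 78.5 and 62.3 CPM with WM-2474 and at 55.7, 77.8 and 63.1 CPM with WM-8014. At 240 h it stood at 174, 245 and 172 CPM with WM-2474 and at 86, 105 and 106 CPM with WM-8014. Both compounds cover the same range at 96 h, while at 240 h every WM-8014 library lies below every WM-2474 library. The 240 h difference was -0.98 (SE 0.192, adjusted p = 0.00329), 1.98-fold lower, and that at 96 h was 0.02 (SE 0.213, adjusted p = 0.967, interval -0.47 to 0.51). The test of the difference between those effects gave -1.0 (SE 0.287, adjusted p = 0.0648), which passed in 3 of 20 alternatives. Per length, the ratio of Col5a3 to Col5a1 was 0.0439 to 0.0608 at 240 h with WM-2474 and 0.0196 to 0.0249 with WM-8014, with no overlap (exact permutation p = 0.1, the smallest possible, adjusted p = 0.2).

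Col24a1 and Col27a1 belong to a separate branch of fibrillar chains, known from developing bone and cartilage, and each fell with WM-8014 at both times. Col24a1 (chr3:145292472-145552013), whose promoter carries the TGACGTCA word, stood at 11.9, 12.7 and 14.1 CPM with WM-2474 and at 9.1, 8.66 and 10 CPM with WM-8014 at 96 h. Levels at 240 h were 22.3, 22 and 19.4 CPM with WM-2474 against 9.89, 9.79 and 11 CPM with WM-8014. The 3 WM-2474 libraries at 240 h stand apart from the other 9, and the compound groups do not overlap at either time. The fall was 0.51 on the log2 scale at 96 h (log2 difference -0.51, SE 0.0988, adjusted p = 0.000798) and 1.05 at 240 h (-1.05, SE 0.0894, adjusted p = 5.16e-09), a 2.08-fold lower level. The 240 h effect was below that at 96 h by a log2 difference of -0.54 (SE 0.135, adjusted p = 0.0108), which passed in all 20 alternatives. The fall at 96 h missed the threshold with WM-2474 cultures 6 and 7 both left out (-0.36, adjusted p = 0.189, in a range of 6.63e-05 to 0.189).

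Col27a1 (chr4:63214009-63334991) stood at 13.9, 14.6 and 13.2 CPM with WM-2474 and at 11.7, 11.1 and 10 CPM with WM-8014 at 96 h. The 240 h libraries stood at 25.9, 30.2 and 27.5 CPM against 11.9, 12.6 and 16.4 CPM. The pattern is that of Col24a1, with the 3 WM-2474 libraries at 240 h above all others and no overlap between compounds at either time. The difference was -0.34 at 96 h (SE 0.11, adjusted p = 0.0315) and -1.02 at 240 h (SE 0.0948, adjusted p = 2.19e-08), 2.03-fold lower. The effects differed by -0.69 (SE 0.146, adjusted p = 0.00351). The 96 h fall missed the threshold without any of WM-2474 cultures 5, 6 and 7 and WM-8014 cultures 6 and 7 (adjusted p of 0.0544 to 0.131 for these, in a range of 0.00984 to 0.281), and the difference of effects missed it without WM-2474 cultures 6 and 7 together (-0.67, adjusted p = 0.0742, in a range of 0.000127 to 0.0742).

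Type XI chains nucleate thin fibrils in cartilage, and Col2a1 is the main cartilage chain. Col11a2 stood at 3.71, 2.17 and 2.68 CPM with WM-2474 and at 2.04, 2.11 and 1.62 CPM with WM-8014 at 96 h, and at 4.93, 5.03 and 3.71 CPM against 3.13, 2.83 and 2.94 CPM at 240 h. Every WM-8014 library was below every WM-2474 library of its time. The difference passed at 240 h (-0.64, SE 0.175, adjusted p = 0.00545) and not at 96 h (-0.52, SE 0.211, adjusted p = 0.0796), where a fit with culture number as a block gave -0.58 with adjusted p = 0.0372, in a range of 0.0372 to 0.244. Col11a1, a chain that fibroblasts also make, ranged from 341 to 478 CPM over the 12 libraries and differed by -0.08 (SE 0.106, adjusted p = 0.655) and -0.19 (SE 0.106, adjusted p = 0.184). At 240 h the compounds did not overlap, at 398.2 to 413.7 against 341 to 377.5 CPM. That difference passed in 3 of 20 alternatives (lowest adjusted p = 0.00172). Col2a1 ranged from 45.8 to 162 CPM and differed by -0.36 (SE 0.412, adjusted p = 0.586) and -0.21 (SE 0.432, adjusted p = 0.738), with intervals that reach from below -1.2 to above 0.5. The other cartilage markers, 9 genes, summed to 42.5 to 44.2 CPM with WM-2474 against 46.9 to 56.1 CPM with WM-8014 at 96 h and to 40 to 44.5 against 40.9 to 45.2 CPM at 240 h, most of it Sox9, with Cnmd and Snorc at 0 reads in every library. Hapln1 of that list went the other way at 96 h, at 0.836 to 1.74 against 0.136 to 0.818 CPM, on 92 and 25 reads. Matn3 averaged lower with WM-8014 at both times, with overlapping ranges.

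**Figure D3:**
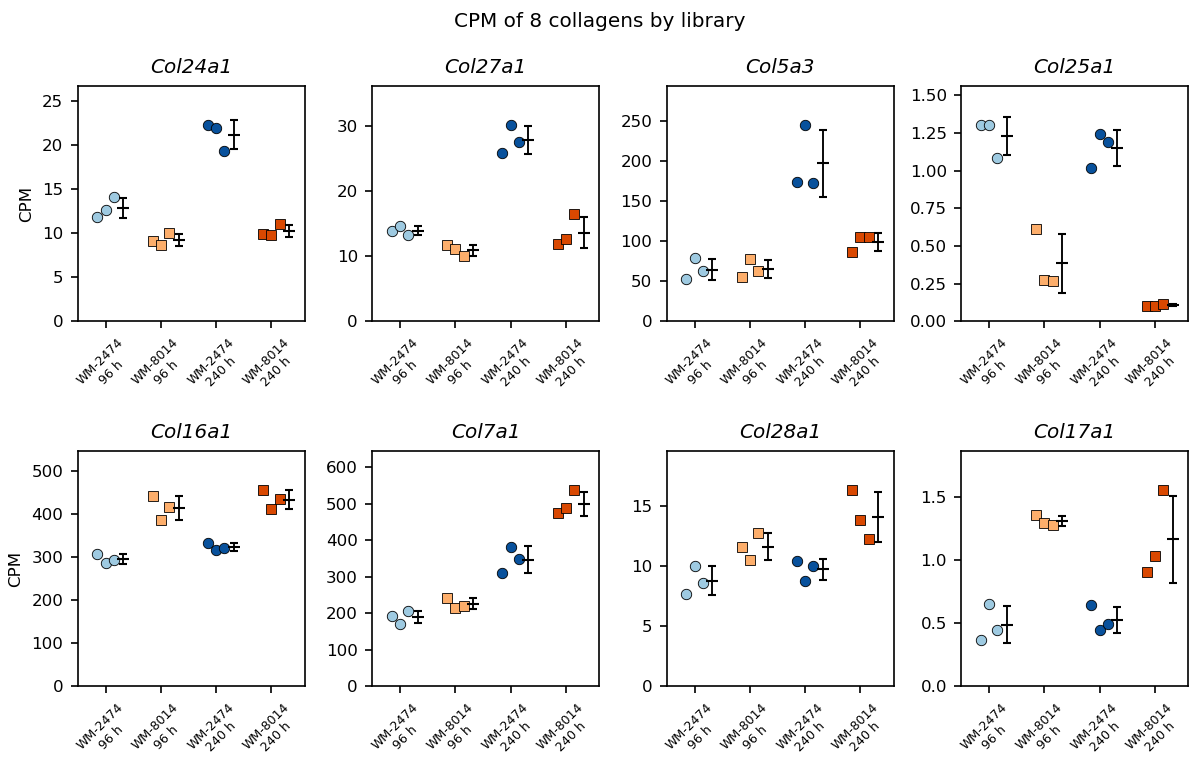
CPM in each of the 12 libraries (linear axes from 0) for 8 collagens, with points for cultures 5, 6 and 7 from left to right in each group and the mean ± SD beside them. In the upper row Col24a1, Col27a1, Col5a3 and Col25a1 are lower with WM-8014 at 240 h, and in the lower row Col16a1, Col7a1, Col28a1 and Col17a1 are higher.

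Among the FACIT collagens, Col16a1 differed between the compounds most clearly, and the others did not pass the test. Col16a1 (chr4:130047817-130099277), which links fibrils and other matrix in skin and cartilage, stood at 307, 285 and 293 CPM with WM-2474 and at 440, 386 and 415 CPM with WM-8014 at 96 h. At 240 h it stood at 332, 316 and 321 CPM against 455, 410 and 434 CPM. The WM-8014 libraries of both times lie above all WM-2474 libraries of both times. The rise was 0.49 (SE 0.0458, adjusted p = 8e-07) at 96 h and 0.42 (SE 0.0454, adjusted p = 3.04e-07) at 240 h, 1.4-fold and 1.34-fold, with adjusted p under 0.05 in all 20 alternatives at each time. The difference between these effects was -0.07 (SE 0.0643, adjusted p = 0.589, interval -0.20 to 0.07).

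Col12a1, which lies on type I fibrils in dense connective tissue and was the most abundant FACIT chain at 167 to 327 CPM per kb (group means), was 1926 to 2176 CPM at 96 h and 3322 to 4012 CPM at 240 h. It differed by -0.12 (SE 0.0465, adjusted p = 0.0726) and -0.08 (SE 0.0463, adjusted p = 0.186). The compounds did not overlap at 96 h, at 2051 to 2176 against 1926 to 1965 CPM. The difference passed in 4 of 20 alternatives at 96 h (lowest adjusted p = 0.0296) and in 1 at 240 h (0.0374). Col14a1, of similar place on fibrils, ranged from 12.4 to 32.1 CPM and differed by -0.33 (SE 0.234, adjusted p = 0.371) and -0.44 (SE 0.209, adjusted p = 0.124, passed in 4 of 20 alternatives, 0.017 to 0.323). The lowest of these came with culture number as a block. Col20a1 (1.45 to 3.92 CPM), Col19a1 (0.577 to 2.25 CPM) and Col9a3 (0.693 to 1.25 CPM), which belongs to the cartilage type IX trimer, had adjusted p of at least 0.157 at both times. The other type IX chains, Col9a1 with 22 reads and Col9a2 with 93 reads in all libraries, and Col22a1 with 42 reads, did not pass the filter.

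Type VI collagen forms beaded microfilaments around cells, from Col6a1, Col6a2 and Col6a3, and its chains were higher with WM-8014 at 96 h and lower at 240 h, although only part of this passed the test. Col6a3 stood at 775, 712 and 666 CPM with WM-2474 and at 1007, 942 and 795 CPM with WM-8014 at 96 h, and at 2239, 2081 and 2121 CPM against 2066, 1812 and 2157 CPM at 240 h. The compounds are separate at 96 h and overlap at 240 h. It rose by 0.35 at 96 h (SE 0.0978, adjusted p = 0.0307) and differed by -0.09 at 240 h (SE 0.0965, adjusted p = 0.472). Col6a1 (chr10:76708792-76726044) stood at 680, 746 and 731 CPM against 808, 791 and 775 CPM at 96 h and at 1284, 1165 and 1181 CPM against 1012, 986 and 1172 CPM at 240 h. The compounds are separate at 96 h, and at 240 h WM-8014 culture 7 falls among the WM-2474 libraries. Its difference was 0.14 at 96 h (SE 0.0597, adjusted p = 0.116), and it fell at 240 h (-0.20, SE 0.0592, adjusted p = 0.016).

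The effects of the compound on Col6a1 at the 2 times differed by -0.33 (SE 0.0841, adjusted p = 0.0204), a test that also takes in the 96 h libraries. Col6a2, its neighbour on the chromosome (chr10:76595756-76623630), ranged from 491 to 622 CPM at 96 h and 860 to 1161 CPM at 240 h, with differences of 0.16 (SE 0.0932, adjusted p = 0.273) and -0.23 (SE 0.092, adjusted p = 0.0773). The compounds overlapped at 240 h, and that difference passed in 5 of 20 alternatives (lowest adjusted p = 0.00254). The difference of effects was -0.38 (SE 0.131, adjusted p = 0.108) for Col6a2 and -0.45 (SE 0.137, adjusted p = 0.0768) for Col6a3. The call on Col6a3 at 96 h was lost without any of WM-2474 cultures 6 and 7 and WM-8014 cultures 5 and 6 (adjusted p of 0.0843 to 0.0994, in a range of 0.00397 to 0.374), that on Col6a1 at 240 h without WM-2474 culture 5 or WM-8014 culture 5 or 6 (0.0551 to 0.0598, in a range of 3.76e-05 to 0.0598), and its difference of effects without WM-8014 culture 5 or 6 at 96 h (0.0569 and 0.0515, in a range of 6.24e-05 to 0.0637). The later type VI chains Col6a4, Col6a5 and Col6a6 had 44, 31 and 36 reads in all libraries and did not pass the filter.

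Of the short chain collagens, Col8a1, an endothelial and mesenchymal chain, was the abundant one, at 408 to 494 CPM at 96 h and 563 to 638 CPM at 240 h. It differed by -0.10 at 96 h (SE 0.0492, adjusted p = 0.148) and by 0.12 at 240 h (SE 0.0486, adjusted p = 0.0625), which passed in 7 of 20 alternatives (0.0141 to 0.2), among them the block by culture number (0.0141). Its partner Col8a2 (chr4:126286794-126314330) stood at 8.82, 5.35 and 6.7 CPM with WM-2474 and at 3.26, 4.23 and 3.52 CPM with WM-8014 at 96 h, and at 9.06, 7.07 and 8.07 CPM against 5.85, 4.77 and 7.45 CPM at 240 h. The compounds are separate at 96 h, and at 240 h WM-8014 culture 7 lies above WM-2474 culture 6. Col8a2 fell at both times, by -0.89 (SE 0.196, adjusted p = 0.00319) and -0.45 (SE 0.17, adjusted p = 0.0426), and the 240 h call was lost in 9 of 20 alternatives, among them each setting without WM-2474 culture 5 or 7 or WM-8014 culture 5 or 6 of that time (adjusted p of 0.0868 to 0.3 for these, in a range of 0.00436 to 0.336). Col10a1, the chain of hypertrophic cartilage, spanned 2.23 to 7.02 CPM at 96 h and 8.95 to 27.1 CPM at 240 h, with compound differences of -0.49 (SE 0.577, adjusted p = 0.605) and -0.87 (SE 0.35, adjusted p = 0.0772). In each pair of same-numbered cultures the WM-8014 library was the lower at both times. With culture number as a block the 96 h difference was -0.63 with adjusted p = 0.0175, in a range of 0.0175 to 0.925. The 240 h difference passed in 3 of 20 alternatives. These were culture number as a block (adjusted p = 6.64e-07), no robust estimation (-0.87, adjusted p = 0.0119) and WM-2474 culture 7 of that time left out (-1.14, adjusted p = 0.0144), in a range of 6.64e-07 to 0.248.

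Type VII collagen, a homotrimer of Col7a1 (chr9:108953586-108984875), ties the skin's basement membrane to the dermis and is made by fibroblasts and keratinocytes. It stood at 192, 172 and 205 CPM with WM-2474 and at 243, 215 and 222 CPM with WM-8014 at 96 h, and at 310, 382 and 350 CPM against 476, 489 and 538 CPM at 240 h. The WM-8014 libraries were above the WM-2474 libraries at each time, and the gap was wider at 240 h. Col7a1 rose at 240 h by 0.53 (SE 0.0908, adjusted p = 0.00113), or 1.44-fold, and was higher by 0.25 at 96 h without passing (SE 0.0945, adjusted p = 0.0905, in a range of 0.00912 to 0.324). The effects at the 2 times differed by 0.28 (SE 0.131, adjusted p = 0.244).

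The membrane-spanning collagens had few reads. Col25a1 (chr3:130180358-130599884), known from neurons and developing muscle innervation, stood at 1.3, 1.3 and 1.09 CPM with WM-2474 and at 0.611, 0.273 and 0.271 CPM with WM-8014 at 96 h. The 240 h libraries stood at 1.02, 1.25 and 1.19 CPM against 0.101, 0.104 and 0.115 CPM, which is 71 reads in the WM-2474 group and 6 in the WM-8014 group. The compounds do not overlap at either time, and the WM-8014 libraries at 240 h each hold 1 to 3 reads. It fell by -1.60 (SE 0.335, adjusted p = 0.0016) at 96 h and -3.36 (SE 0.42, adjusted p = 1.34e-06) at 240 h. The fold is poorly fixed by 6 reads, and the difference of effects did not pass (-1.76, SE 0.616, adjusted p = 0.0732). The 96 h call was lost without WM-2474 cultures 6 and 7 together (-1.74, adjusted p = 0.0621, in a range of 0.00119 to 0.0621).

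Col17a1 (chr19:47646341-47692042), the hemidesmosome collagen of skin epithelium, went the other way. It stood at 0.371, 0.651 and 0.451 CPM with WM-2474 and at 1.36, 1.3 and 1.28 CPM with WM-8014 at 96 h, and at 0.643, 0.445 and 0.495 CPM against 0.908, 1.04 and 1.56 CPM at 240 h. No library overlaps with the other compound at its time, on 35 against 58 reads and 32 against 66 reads per group. The rise was 1.44 (SE 0.306, adjusted p = 0.00178) and 1.17 (SE 0.301, adjusted p = 0.00342), and after thinning of every library to the smallest total the 96 h rise was 0.95 (adjusted p = 0.106, in a range of 0.00117 to 0.106). Without WM-2474 cultures 6 and 7 together it was 1.80 with adjusted p = 0.0856. The 6 epithelial markers summed to 2.03 to 3.9 CPM with WM-2474 against 0.955 to 2.58 CPM with WM-8014 at 96 h, and to 0.99 to 1.18 against 0.934 to 1.92 CPM at 240 h, overlapping at both times. Within that list Krt14 was higher with WM-8014, at 0.172 ± 0.187 against 0.543 ± 0.623 CPM at 96 h, where the ranges overlap, and at 0.0657 ± 0.0292 against 0.431 ± 0.244 CPM at 240 h, where they do not, on 4 and 20 reads. Krt5 averaged at most 0.0492 CPM per group and Epcam had 0 reads in both WM-8014 groups. The part of these markers in the Col17a1 difference was not tested. Col23a1 ranged from 0.934 to 3.75 CPM and differed by -0.36 (SE 0.218, adjusted p = 0.249) and -0.66 (SE 0.27, adjusted p = 0.0533, passed in 6 of 20 alternatives, among them the block by culture number, 0.0275 to 0.44). Col13a1, of neuromuscular junctions and other adhesion sites, had 1 read in the 12 libraries.

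Of the remaining chains, Col28a1 (chr6:7997100-8193709), a von Willebrand domain collagen known in the mouse from around peripheral glia, stood at 7.71, 10.1 and 8.63 CPM with WM-2474 and at 11.6, 10.5 and 12.8 CPM with WM-8014 at 96 h. Levels at 240 h were 10.4, 8.76 and 10.1 CPM against 16.3, 13.8 and 12.2 CPM. The compounds are separate at each time. It rose by 0.40 (SE 0.118, adjusted p = 0.0172) and 0.52 (SE 0.111, adjusted p = 0.000689), and the 96 h call was lost without WM-2474 culture 5 or 7 or WM-8014 culture 7 (adjusted p of 0.055 to 0.0992, in a range of 0.00724 to 0.0992). The 4 glial markers summed to 6.5 to 7.96 CPM with WM-2474 against 7.5 to 8.25 CPM with WM-8014 at 96 h, and to 4.93 to 5.78 against 2.93 to 4.73 CPM at 240 h. At 240 h Sox10 averaged 2.35 ± 0.28 against 0.927 ± 0.259 CPM, whereas S100b averaged 1.6 ± 0.391 against 1.88 ± 0.303 CPM at 96 h and 0.888 ± 0.441 against 1.25 ± 0.494 CPM at 240 h, with overlapping ranges. Their part in the Col28a1 difference was not tested. Col26a1 had 18 reads in all and did not pass the filter.

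Markers of other cell types were summed per library for comparison, and some stood apart by compound. The 5 skeletal muscle markers summed to 20.4 to 25 CPM with WM-2474 against 31.8 to 35.1 CPM with WM-8014 at 96 h, and to 28.5 to 36 against 82.4 to 106.2 CPM at 240 h, nearly all of it Des, while Myod1 and Myog averaged at most 0.0522 CPM per group at 240 h. The 4 adipocyte markers overlapped at 96 h and summed to 35.5 to 41.6 against 20.5 to 23.1 CPM at 240 h, mostly Lpl, with Adipoq at 0 reads in the WM-8014 group. Fabp4 of that list went the other way, at 1.91 to 2.69 against 3.52 to 5.37 CPM at 96 h and 0.578 to 0.804 against 1.27 to 2.11 CPM at 240 h. The sums of the 9 fibroblast markers were also separate by compound, at 11831 to 12399 against 12622 to 14115 CPM at 96 h and 17590 to 19336 against 20953 to 21751 CPM at 240 h. Most of each sum was Fn1, which like Vim averaged higher with WM-8014 at both times. Lum of that list went the other way, at 11.8 ± 1.41 against 5.59 ± 1.78 CPM at 96 h and 16 ± 7.73 against 3.45 ± 1.9 CPM at 240 h, without overlap. Fap, given below, was lower too, and Dcn averaged lower with overlapping ranges. The 4 leukocyte markers summed to at most 6.22 CPM with WM-2474 and at least 6.55 CPM with WM-8014, most of it Cd68 and Csf1r. Ptprc and Adgre1 averaged at most 0.317 and 0.158 CPM per group, and at 240 h both averaged lower with WM-8014 on few reads. The 4 tendon markers summed to 26.4 to 30.3 against 20.6 to 24.6 CPM at 96 h and to 24 to 31.7 against 19.3 to 24.1 CPM at 240 h, where they overlap. Scx of that list averaged 2.36 ± 0.455 against 3.23 ± 0.741 CPM at 240 h, the other way, with overlapping ranges. The 7 bone markers overlapped at both times, most of it Spp1. The 5 endothelial markers summed to 5.43 to 6.52 against 3.34 to 5.28 CPM at 96 h, without overlap, and overlapped at 240 h. Pecam1 of that list averaged 0.103 against 0.113 CPM at 96 h, the other way, with overlapping ranges. The part of these markers in the collagen differences was not tested.

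From 96 to 240 h, collagens rose in either compound. With WM-2474, 18 of the 28 tested rose and 2 fell, or 64.3% and 7.14%, where 19.8% of all genes rose and 19.1% fell. With WM-8014, 17 rose and 2 fell, or 60.7% and 7.14%, where 24.8% of all genes rose and 25% fell. The median log2 change of the 28 was 0.68 with WM-2474 and 0.51 with WM-8014, against -0.01 and -0.02 for all genes tested. These comparisons share their libraries with those between compounds. In the fibrillar class 9 of 11 rose with WM-2474 and 8 of 11 with WM-8014, and in type VI the 3 abundant chains rose with each compound. The summed fibroblast markers, mostly Fn1, were higher at 240 h than at 96 h in every library of either compound, in the ranges given above. With WM-8014, Lum (5.59 ± 1.78 then 3.45 ± 1.9 CPM) and Dcn (60.2 ± 16 then 55.9 ± 19.1 CPM) averaged lower at 240 h, with overlapping ranges. With WM-2474 both averaged higher. The 5 endothelial markers were lower, at 5.43 to 6.52 CPM at 96 h and 2.22 to 3.27 CPM at 240 h with WM-2474 and at 3.34 to 5.28 and 2.32 to 2.6 CPM with WM-8014. The part of either in the change over time was not tested.

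Type I chains rose over time by 0.70 (Col1a1, SE 0.0719, adjusted p = 5.54e-06) and 0.67 (Col1a2, SE 0.0458, adjusted p = 1.84e-10) with WM-2474, and by 0.60 (SE 0.0718, adjusted p = 1.26e-05) and 0.49 (SE 0.0457, adjusted p = 1e-08) with WM-8014. Col3a1 rose by 1.0 and 0.57, Col12a1 by 0.85 and 0.89, and Col7a1 by 0.87 and 1.15. Col5a1 rose by 1.12 with WM-2474 and 1.12 with WM-8014, while Col5a2 rose by 0.57 and 0.65. Per length, the ratio of Col5a1 to Col5a2 was 0.995 to 1.05 with WM-2474 and 1.01 to 1.11 with WM-8014 at 96 h, and 1.42 to 1.54 and 1.43 to 1.52 at 240 h. Its differences over time, 0.466 and 0.411, had the smallest p an exact permutation test allows (0.1, adjusted p = 0.2). Type VI shifted in the same manner, with Col6a3 at 0.334 to 0.418 of Col6a1 with WM-2474 and 0.377 to 0.457 with WM-8014 at 96 h, and at 0.64 to 0.659 and 0.674 to 0.749 at 240 h (p = 0.1 for each by the exact permutation test, adjusted p = 0.2).

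**Figure D4:**
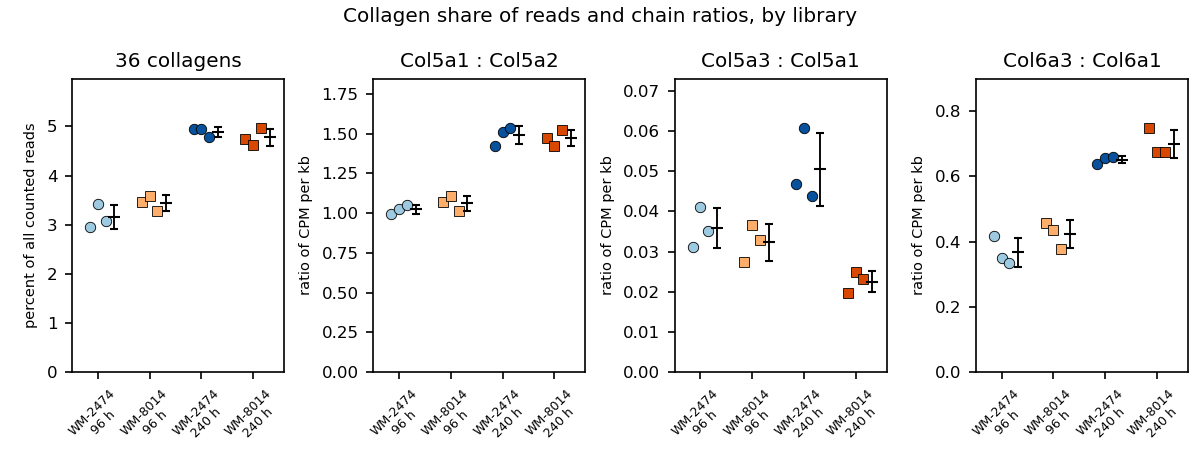
Percent of counted reads in the 36 collagens, and ratios of CPM per kb for 3 pairs of chains, in each of the 12 libraries (axes from 0), with points for cultures 5, 6 and 7 from left to right and the mean ± SD beside them. The share and the ratios of Col5a1 to Col5a2 and of Col6a3 to Col6a1 are higher at 240 h with either compound, and Col5a3 relative to Col5a1 is at 0.0439 to 0.0608 with WM-2474 and 0.0196 to 0.0249 with WM-8014 at 240 h.

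The minor fibrillar chains that fell with WM-8014 rose over time with WM-2474. Col5a3 rose by 1.61 with WM-2474 (SE 0.199, adjusted p = 0.000259) and by 0.60 with WM-8014 (SE 0.207, adjusted p = 0.0398), the latter lost in 8 of 20 alternatives, among them without WM-8014 culture 5 or 7 at 96 h and culture 6 or 7 at 240 h (adjusted p of 0.0996 to 0.126, in a range of 0.000324 to 0.126). Col27a1 rose by 1.02 with WM-2474 (SE 0.0934, adjusted p = 2.06e-08) and by 0.33 with WM-8014 (SE 0.111, adjusted p = 0.0175), the latter lost without culture 7 of either WM-8014 group (adjusted p of 0.0866 and 0.158, in a range of 0.00624 to 0.158). Col24a1 rose by 0.69 with WM-2474 (SE 0.0846, adjusted p = 1.26e-06) and changed by 0.14 with WM-8014 (SE 0.104, adjusted p = 0.271). The differences of these changes are the same tests as those between the compound effects given above, and passed for Col24a1 and Col27a1. Col11a2 rose with both compounds, by 0.72 with WM-2474 (SE 0.172, adjusted p = 0.00205) and by 0.61 with WM-8014 (SE 0.214, adjusted p = 0.0227). These calls were lost in 1 and 2 of 20 alternatives. The compound effects on Col11a2 at the 2 times differed by -0.11 (SE 0.278, adjusted p = 0.869). Col10a1 rose the most of the 28 in either compound, by 2.29 (SE 0.405, adjusted p = 0.00207) and 1.91 (SE 0.499, adjusted p = 0.0124), from single-digit CPM. The first was lost without WM-2474 cultures 6 and 7 at 96 h together (adjusted p = 0.0565, in a range of 4.1e-12 to 0.0565) and the second without WM-8014 culture 6 at 240 h (0.0548, in a range of 1.85e-09 to 0.0548).

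Few collagens fell over time. Col23a1 fell by -0.83 with WM-2474 (SE 0.217, adjusted p = 0.00413) and -1.13 with WM-8014 (SE 0.269, adjusted p = 0.00143). Col19a1 fell by -1.45 with WM-2474 (SE 0.315, adjusted p = 0.000847) and Col25a1 by -1.79 with WM-8014 (SE 0.564, adjusted p = 0.0117), the group in which it ended at 6 reads. Col19a1 and Col25a1 passed the filter on low counts chiefly through the groups where they were high. Without WM-2474 culture 7 at 96 h, the library with 45903190 counts, neither fall with WM-2474 passed (adjusted p = 0.116 for Col23a1 and 0.074 for Col19a1, in ranges of 0.00102 to 0.745 and 5.55e-05 to 0.297). The fall of Col25a1 was lost without WM-8014 culture 5 at 96 h (adjusted p = 0.148) or culture 6 at 240 h (0.0553), in a range of 0.00978 to 0.148.

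Tests of the difference between the compound effects at 240 h and 96 h found no collagen of the 28 higher and 3 lower by edgeR, where 5.15% of all genes were higher and 5.53% lower. The 3 were Col24a1, Col27a1 and Col6a1, with the values given above. At an unadjusted p under 0.05 edgeR had 2 higher and 9 lower, but the count over all genes at that threshold is not given here, so no trend is read from it. DESeq2 called 1 higher, Col8a1 (0.23, adjusted p = 0.0364), and 5 lower, where it called 624 higher and 626 lower of 14136 genes.

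The enzymes and chaperones that fold and process collagen chains moved in both directions. Of 33 such genes, 30 were tested. At 96 h 12 rose and 5 fell with WM-8014, or 40% and 16.7% of the 30, where 10.9% of all genes rose and 11.8% fell. At 240 h 12 rose and 10 fell, or 40% and 33.3%, where 21.2% of all genes rose and 21.4% fell. The medians were 0.11 and 0.09, against 0.00 and 0.01 for all genes. The 5 falls at 96 h became 2 without WM-2474 culture 6 or 7 or WM-8014 culture 7 and 3 without WM-8014 culture 5. Over all genes, 1345, 1076, 1333 and 1172 fell in these settings, in the order named, against 1674 in the main fit. At 96 h the smallest p values were those of P4ha3, a prolyl hydroxylase subunit (0.30, SE 0.0501, adjusted p = 0.000238), Sparc, a collagen-binding matrix protein (0.21), Pcolce, an enhancer of propeptide cleavage (0.22), Crtap, part of the prolyl 3-hydroxylation complex (0.19), and Colgalt1, a collagen galactosyltransferase (0.18), all of which rose. At 240 h they were those of P3h2, a prolyl 3-hydroxylase (1.22, SE 0.138, adjusted p = 3.62e-07), the folding enzyme Fkbp14 (0.31), Crtap (0.25), Pcolce (0.28) and P3h4 (0.36), all higher again. P3h2 averaged 5.04 ± 0.926 CPM with WM-2474 against 11.7 ± 1.82 CPM with WM-8014 at 240 h, with no overlap. The 96 h difference of P3h2 was 0.41 and did not pass (SE 0.153, adjusted p = 0.0551), whereas the fit with culture number as a block gave 0.48 with adjusted p = 0.00448, in a range of 0.00448 to 0.301. The largest falls on the list were those of Adamts3, a procollagen N-propeptidase, and Tll1, a protease of the procollagen C-propeptidase family, both named with their values seen. Adamts3 fell at 240 h from 0.74 ± 0.22 to 0.233 ± 0.0486 CPM (-1.66, SE 0.475, adjusted p = 0.00709), on 46 and 13 reads with no overlap, and the call was lost without WM-8014 culture 6 (adjusted p = 0.0514, in a range of 0.003 to 0.0514). Tll1 averaged 81.5 ± 3.71 against 59.3 ± 3.46 CPM at 96 h and 117.5 ± 16.2 against 72.9 ± 8.51 CPM at 240 h. It fell by -0.47 (SE 0.118, adjusted p = 0.0203) and -0.68 (SE 0.112, adjusted p = 0.000868), and the 96 h call was lost without WM-2474 culture 6 or 7 or WM-8014 culture 5 or 7 (adjusted p of 0.054 to 0.0818, in a range of 9.2e-06 to 0.318).

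Of 11 receptors and uptake proteins for collagen, 8 were tested, and 3 rose at 96 h and 5 at 240 h, or 37.5% and 62.5%, where 10.9% and 21.2% of all genes rose. None of the 8 fell by edgeR at an adjusted p under 0.05, where 11.8% and 21.4% of all genes fell. At an unadjusted p under 0.05 edgeR had 1 lower at 96 h and 0 at 240 h, a threshold for which the count over all genes is not given here. DESeq2 had 0 lower at either time after adjustment, where it called 1338 and 2582 of 14136 genes lower. The kinases Ddr1 and Ddr2, which bind fibrillar collagen, rose at both times, by 0.22 and 0.24 and by 0.16 and 0.19. The uptake receptor Mrc2 rose at 96 h by 0.14 (adjusted p = 0.0163) and differed by 0.08 at 240 h (adjusted p = 0.112). The 96 h call on Mrc2 was lost without WM-2474 culture 5 or 7 or WM-8014 culture 5 (adjusted p of 0.0553 to 0.11, in a range of 0.00511 to 0.171). Without WM-2474 cultures 6 and 7 together none of the 3 rises at 96 h passed in edgeR (adjusted p of 0.0731 for Ddr1, 0.121 for Ddr2 and 0.171 for Mrc2). The integrin subunits Itga1 (0.35), Itga10 (0.71) and Itgb1 (0.12) rose at 240 h, and at 96 h they differed by -0.09, 0.09 and -0.06 with adjusted p of at least 0.266. The call on Itgb1 was lost without WM-2474 culture 5 (0.07, adjusted p = 0.152) or WM-8014 culture 6 (adjusted p = 0.0842) of that time and with only the groups compared (0.0554), in a range of 0.00376 to 0.152. Itga2 averaged under 1 CPM in each group and did not pass at either time.

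Of 9 genes for collagen breakdown, 7 were tested, with 2 higher and 1 lower at 96 h (28.6% and 14.3%, where 10.9% and 11.8% of all genes were) and 1 higher and 2 lower at 240 h (14.3% and 28.6%, where 21.2% and 21.4% were). At 240 h these shares, of only 7 genes, lie near those of all genes. Fap, a membrane protease that cuts gelatin and also stands on the fibroblast marker list, averaged 5.01 ± 0.875 CPM with WM-2474 against 2.81 ± 0.504 CPM with WM-8014 at 96 h, and 11.1 ± 0.246 against 3.47 ± 0.735 CPM at 240 h. The groups do not overlap, and it fell by -0.91 (SE 0.169, adjusted p = 0.000551) and -1.65 (SE 0.142, adjusted p = 6.15e-09). Without WM-2474 cultures 6 and 7 together the 96 h difference was -0.57 with adjusted p = 0.233, in a range of 1.24e-05 to 0.233. Ctsk, a lysosomal collagenase, rose by 0.61 (SE 0.0599, adjusted p = 5.67e-06) and 0.42 (SE 0.0564, adjusted p = 1.7e-05). The membrane collagenase Mmp14 rose at 96 h by 0.21 (adjusted p = 0.00085) and differed by 0.03 at 240 h (adjusted p = 0.531). The gelatinase Mmp9 fell at 240 h from 1.76 ± 0.923 to 0.793 ± 0.163 CPM (-1.18, SE 0.372, adjusted p = 0.0154), with overlapping groups, and that call was lost without WM-2474 culture 6 or 7 or WM-8014 culture 6 at 240 h (adjusted p of 0.0698 to 0.0907, in a range of 0.000169 to 0.0907). Mmp13 and Mmp2 did not pass at 240 h (adjusted p = 0.0556 and 0.182), although Mmp13 did in 8 of 20 alternatives (0.00142 to 0.187).

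The basement membrane collagens, 8 genes of which 7 were tested, are given for contrast, with 1 higher and 4 lower at 96 h (14.3% and 57.1%, where 10.9% and 11.8% of all genes were) and 1 higher and 3 lower at 240 h (14.3% and 42.9%, where 21.2% and 21.4% were). Col15a1 and Col18a1, multiplexins that bind basement membranes, fell at 240 h by -2.30 (SE 0.0953, adjusted p = 1.08e-11) and -1.77 (SE 0.214, adjusted p = 0.000196). No collagen outside basement membranes fell by as much except Col25a1, on its 6 reads. Whether the 2 sets of collagens differ as sets was not tested.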

How the data were processed

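RNA was isolated with RNeasy columns and sequenced from strand-marking poly(A) TruSeq Stranded mRNA libraries, according to the labels' protocols. The deposited table gives a raw read count per Entrez gene and library, which the authors made with featureCounts on mm10, per the submitters' processing notes, and it was read through the library descriptions in the labels. The sources used here name no aligner, annotation or strand setting, so reads of overlapping or antisense genes may not be separated. Symbols, for 25275 of 27179 genes (93%), coordinates (GRCm38.p6, the coordinate system of mm10, counted from 1) and promoters come from RefSeq tables. CPM per kb uses the gene lengths deposited by the authors with the counts.

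Testing was by edgeR 4.0.16 under R 4.3.3: filterByExpr by group (14136 genes kept), TMM scaling, a mean per group over all 12 libraries, and a two-sided quasi-likelihood F test with robust estimation, with Benjamini-Hochberg adjustment over all genes tested and a threshold of 0.05. The SE is the log2 fold change divided by the root of its F statistic. The fit was also run on simulated counts with 200 genes changed in WM-8014 at 96 h, the same spread for every gene and no change over time. That setting is simpler than these data, so it does not give the error rate of the calls made here. Total counts were 10147466 to 45903190, where 3 reads are 0.296 to 0.0654 CPM, a limit from counting alone. Replicate libraries differed by more than sampling noise (chi-square per degree of freedom 2.23 to 7.72), so none was counted as a duplicate. Shares and chain ratios were compared by exact permutation tests.

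Same-numbered cultures deviated together at 96 h (correlations 0.14, 0.15 and 0.16), so the numbers were taken to pair those libraries. The main fit did not use this pairing, so its SE and adjusted p are unpaired. Culture number entered the tests only as a block, among the alternatives, which lost 0 collagen calls and gained 14. At 240 h the correlations were 0.064, 0.24 and 0.048, which did not all pass 0.1. Whether the numbers mark separate embryos is not stated.

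The collagens, the other lists, the tests and the left-out libraries were chosen with earlier results of these data known. Every collagen of the rule is named by class, and values per library are given for those passing in a compound comparison and for Col1a1, Col1a2, Col3a1, Col5a1 and Col5a2. From the lists for maturation, receptors and breakdown up to 5 genes with the smallest p at each time are named. Adamts3, Tll1, basement membrane collagens and marker genes were named outside that rule, with their values seen. Alternatives were DESeq2 1.42.0 and its size factors, no filter, culture number as a block, no robust estimation, only the groups compared, thinning to the smallest total, each library left out, and WM-2474 96 h cultures 6 and 7 left out together, which earlier results had found apart in a few genes.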

Additional observations from a re-analysis of the deposited data

Results flagged for a closer look

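For 3 collagens the effect of WM-8014 against WM-2474 differed between 240 h and 96 h by a test of that difference in edgeR. The log2 difference of the effects, 240 h minus 96 h, was -0.333 for Col6a1 (SE 0.0841, adjusted p = 0.0204), -0.543 for Col24a1 (SE 0.135, adjusted p = 0.0108) and -0.689 for Col27a1 (SE 0.146, adjusted p = 0.00351). Col6a1 moved from 0.14 to -0.20, Col24a1 from -0.51 to -1.05 and Col27a1 from -0.34 to -1.02. The result for Col6a1 missed the threshold with no filter on low counts (adjusted p = 0.0637) and without WM-8014 culture 5 or 6 at 96 h (0.0569 and 0.0515), in a range of 6.24e-05 to 0.0637. That for Col27a1 missed it without WM-2474 cultures 6 and 7 at 96 h (0.0742, in a range of 0.000127 to 0.0742). That for Col24a1 passed in all 20 alternatives.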

How the results depend on the processing

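Each value for the collagens was recomputed under 20 alternatives, and of 2798 values 2639 kept their side of the threshold, 76 lost the call, 83 gained it and 0 changed direction while called. Of 66 calls, 41 held in every setting, and no setting moved the median of all genes by more than 0.1. At 96 h the 7 higher and 4 lower collagens became 2 to 8 and 3 to 5 with single libraries left out, the fewest higher without WM-2474 culture 7 of that time. Without that library 977 of 14078 genes tested rose and 1076 fell, against 1544 and 1674 of 14136 in the main fit. Without WM-2474 cultures 6 and 7 together that group holds 1 library, so no count of calls is given for it. At 240 h single libraries gave 6 to 7 higher and 5 to 11 lower, the most lower without WM-8014 culture 7 of that time. In that setting 2724 of 14083 genes tested fell, against 3031 of 14136 in the main fit. For the difference of effects, 1 collagen was higher with DESeq2 size factors, with DESeq2, with no filter, under the replicate block and after thinning. Of the collagens 5 were lower with DESeq2, 6 under the block and 6 without robust estimation. Single libraries gave 0 to 1 higher and 2 to 5 lower. Higher calls over all genes were 728 in the main fit and 775, 624, 754, 917 and 539 in the first 5 of these settings. Lower calls over all genes were 782 in the main fit, 626 with DESeq2, 923 under the block and 773 without robust estimation. With single libraries left out they were 505 to 802 higher and 568 to 801 lower. For changes over time, the 2 that fell with WM-2474 became 0 to 2 with single libraries left out. They became 0 without WM-2474 culture 7 at 96 h, where 2080 of 14078 genes fell, against 2697 of 14136 in the main fit. The 2 that fell with WM-8014 became 1 with only the groups compared and after thinning, and 1 to 2 with single libraries left out. With only the groups compared 3261 of 13569 genes fell and after thinning 3075 of 13559, against 3527 of 14136 in the main fit. The block by culture number lost 0 calls and gained 14, among them at 240 h Col10a1 (-0.89, adjusted p = 6.64e-07), Col8a1 (0.12, 0.0141), Col14a1 (-0.48, 0.017) and Col23a1 (-0.65, 0.0367). Over all genes the block gave 3154 higher and 3176 lower between compounds at 240 h, against 2996 and 3031 in the main fit. In the cases where fewer libraries were used the construction itself lowers power, and otherwise the cause was not tested. Depth limits the genes at a few reads per library, chiefly Col17a1, Col19a1 and Col25a1, and the 8 collagens that were not tested.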
